A study of Mus musculus with 7 samples.

Results

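The Dxz4 boundary region was examined as the open chromatin between 72.5 and 73.3 Mb of chrX in the mm9 build, a window that holds the Dxz4 macrosatellite at about 72.966 to 73.01 Mb. Members were all listed peaks that overlapped the window, 393 of 1148114 rows over 13 deposited peak lists. The 3 lists of peaks reproducible between libraries (IDR lists, for irreproducible discovery rate) gave 50 members of 107303 rows. Their 6 library lists gave 269 of 503907 rows, and the 4 lists of the male lines gave 74 of 536904. The array coordinates are approximate, and the sources used here do not give those of the deltaFT deletion, so no peak was classed as inside or outside the deletion.

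Dxz4 is a tandem repeat that binds the insulator protein CTCF on the inactive X and is transcribed into the long noncoding RNA 4933407K13Rik. It lies at the hinge where the inactive X of female cells folds into a pair of very large domains, a boundary that the active X lacks. The inactive X is coated by Xist RNA and is closed over most of its length, with a few regions that stay open.

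ATAC-seq, in which the Tn5 transposase inserts adapters into open chromatin, was performed on 7 samples, 1 per group. The female lines came from a 129S1 x Cast:EiJ F1 cross: deltaFT neural progenitor cells (NPC, line sgdgb2), wild-type NPC (line C2) and wild-type embryonic stem cells (mESC, line F1216). NPC carry 1 inactive X, whereas both X chromosomes are active in female mESC. The male lines were J1 mESC (TXY) with an Xist gene inducible by doxycycline (dox) at its own locus, so every TXY group carried the inducible allele. They were TXY deltaRepA plus dox, TXY deltaRepA no dox, TXY wild type plus dox and TXY wild type no dox, where deltaRepA lacks the A repeat that Xist needs for silencing, plus dox is 2 ug/mL for 48 hours and no dox is untreated. Each replicate used 50K cells, and each female group was 1 line. Group names follow the titles, although the mESC source label says neural progenitors and a no-dox file is named in the description of either plus-dox sample.

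The IDR lists held 11085592 reads in 37270 peaks for deltaFT NPC, 11014387 in 41126 for wild-type NPC and 6490181 in 28907 for mESC, of which 40.4%, 38.5% and 39.6% were assigned to an allele. The allele columns name no strain, and they are told apart here as first-listed and second-listed. Each IDR list joined 2 libraries, but in both NPC lines all rows of the library 2 list on chrX equalled those of library 1, among them 37 window rows in deltaFT and 56 in wild type; in mESC none were equal. Of the library 2 strengths carried by the NPC IDR lists in the window, 0 of 14 in deltaFT and 1 of 19 in wild type were found in the library 2 list, against 16 of 17 in mESC. The spread between NPC libraries was therefore not measured in the window. With 1 sample per group no test between groups was made, and the 95% intervals (exact Clopper-Pearson for shares, and converted from these for ratios of reads) cover counting error only. The interval of a difference of shares is approximate: it takes the root of the summed squares of both shares' distances to their limits. Reads from near-identical copies of the array cannot be placed with certainty, and the sources used here do not say how the authors placed them.

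The promoter of 4933407K13Rik is shown because this gene is the annotated transcript of Dxz4. It runs from 250 bases before to 50 bases after the gene's start, at chrX:75764650-75764949 on the minus strand in RefSeq's GRCm38.p6 build, with CpG dinucleotides, the sites of DNA methylation, in capitals.
4933407K13Rik promoter: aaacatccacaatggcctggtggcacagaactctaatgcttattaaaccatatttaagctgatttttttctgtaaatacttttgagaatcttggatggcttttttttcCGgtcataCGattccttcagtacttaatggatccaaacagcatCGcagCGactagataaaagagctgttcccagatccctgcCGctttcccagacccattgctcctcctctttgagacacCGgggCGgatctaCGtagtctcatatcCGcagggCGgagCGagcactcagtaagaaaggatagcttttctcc
It held 11 CpG against a median of 7 over 32544 promoters of the same length, and a GC content of 45.3% against a median of 53%. The CTCF core motif was not found in it on either strand with up to 1 mismatch, the closest match having 4, and 746 promoters (2.29%) held one; no match says only that these letters are not in this window. In that build the gene lies between Rab39b, a small GTPase gene, and Pls3, which encodes the actin-bundling protein plastin 3. Farther left lie Vbp1 (a prefoldin subunit), Brcc3 (a deubiquitinase), Mtcp1 and Cmc4, with the noncoding genes Gm15384 and Gm39522 between Vbp1 and Rab39b. On the other side Gm14707 and Gm14717 follow Pls3. The peaks are in mm9, for which no annotation was used, so none was assigned to a gene or to this promoter, and the labelled cell types were not checked against marker genes.

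The 50 IDR peaks formed 25 sites, 7 in the left flank (lower coordinates than the array), 9 in the array and 9 in the right flank. In deltaFT NPC 7 left-flank, 2 array and 4 right-flank sites were open, against 7, 6 and 6 in wild-type NPC and 6, 7 and 4 in mESC. The array was thus the place where the deltaFT list was shortest relative to the other lines. The library lists gave the same order for deltaFT and wild type: with a −log10 p of at least 5, 2 array peaks were listed in library 1 of deltaFT NPC, against 12 in wild-type NPC and 10 in mESC, while the left flank held 12 in each. At that strength the right flank held 9, 13 and 11. Over all strengths the numbers in the array were 7, 12 and 12, in the left flank 18, 27 and 17, and in the right flank 12, 17 and 14. DeltaFT NPC then held fewer peaks than wild-type NPC in every place, so the array stood out less. On the whole of chrX these lists held 6657, 7114 and 6688 peaks.

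**Figure D1:**
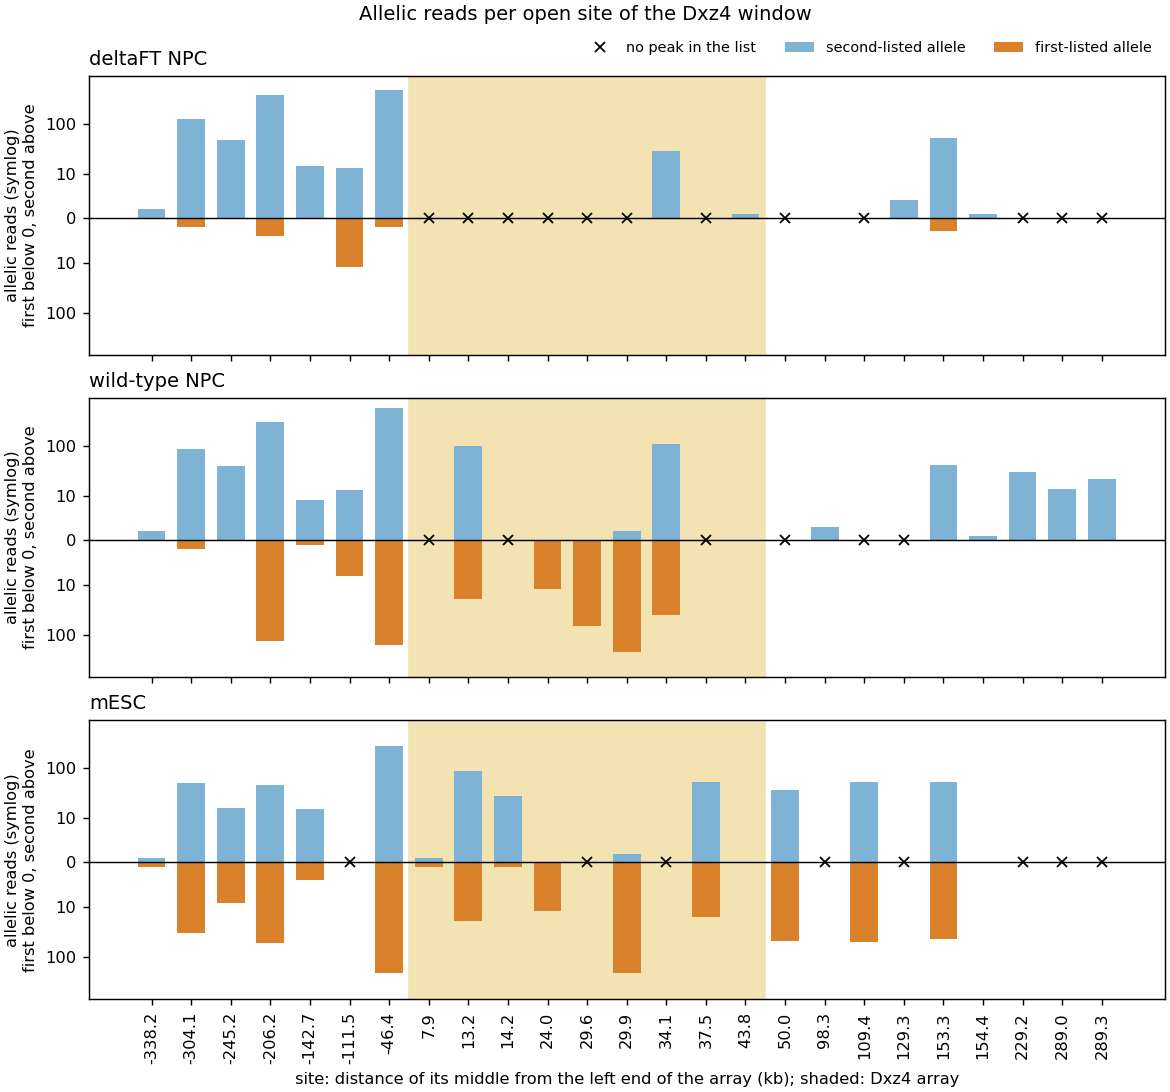
Reads assigned to the first-listed (below 0) and the second-listed allele (above 0) at the 25 sites, on an axis that is linear up to 10 and logarithmic beyond. Crosses mark sites with no peak in that line's IDR list, and a site with neither bar nor cross has a peak with no allelic read. The first-listed bars are near 0 at most sites in deltaFT NPC, and the array holds crosses at 7 of its 9 sites there.

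The deltaFT comparison addressed how the listed open chromatin of the line with the deletion differed from wild type. As the deletion was not placed against the peaks, deleted sequence and closed chromatin cannot be told apart where deltaFT reads are missing. Across the window the first-listed allele held almost no reads in deltaFT NPC. In the other lines it held, with the array included, no smaller share than on the rest of chrX. Its share was 2.01% (1.28% to 3.0%) in deltaFT NPC, with 23 of 1144 allelic reads in 9 peaks of at least 10 allelic reads. It was 33.1% (31.0% to 35.2%) in wild-type NPC, with 662 of 2003 reads in 15 peaks, and 50.1% (47.4% to 52.7%) in mESC, with 708 of 1414 reads in 13 peaks. The deltaFT share differed from the wild-type NPC share by -31.0 percentage points (-33.3 to -28.8). On chrX outside the window the shares were 8.41%, 20.9% and 48.8%, and on the 19 autosomes 48.9%, 50.4% and 47.9%. The window therefore stood below the rest of chrX in deltaFT NPC and above it in wild-type NPC. Without the peaks of the array the wild-type NPC share was 21.0%, next to the 20.9% of the rest of chrX, and the deltaFT share 2.06%. The mESC share was then 45.5% (42.3% to 48.7%), below the 48.8% of the rest of chrX. Of the 300 first-listed reads then left in wild-type NPC, the sites at 72.760 and 72.920 Mb gave 131 and 158. The median share of these wild-type NPC peaks was 1.15%, against 3.23% on the rest of chrX.

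Flanks and array differed. In the left flank the first-listed allele held 1.88% of allelic reads in deltaFT NPC, 22.7% in wild-type NPC and 43.7% in mESC. In the array it held 0 of 28 reads in deltaFT NPC, which allows up to 12.3%. It held 63.1% in the array of wild-type NPC (59.0% to 67.0%), and in that of mESC 60.6% (55.8% to 65.3%). A few peaks carried these array values: without the peaks that had at least 95% first-allele reads, wild-type NPC had 22.2% (17.4% to 27.7%) and mESC 17.7% (12.7% to 23.7%). In the right flank it held 5.56% (1.16% to 15.4%) in deltaFT NPC, 0 of 107 reads in wild-type NPC, which allows up to 3.39%, and 49.8% in mESC. Both NPC lines thus had few first-allele reads in the right flank, and the larger pooled contrasts between them were in the left flank and the array. The deltaFT values of the array and of the right flank rest on 1 peak each, so they place the contrast only loosely.

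**Figure D2:**
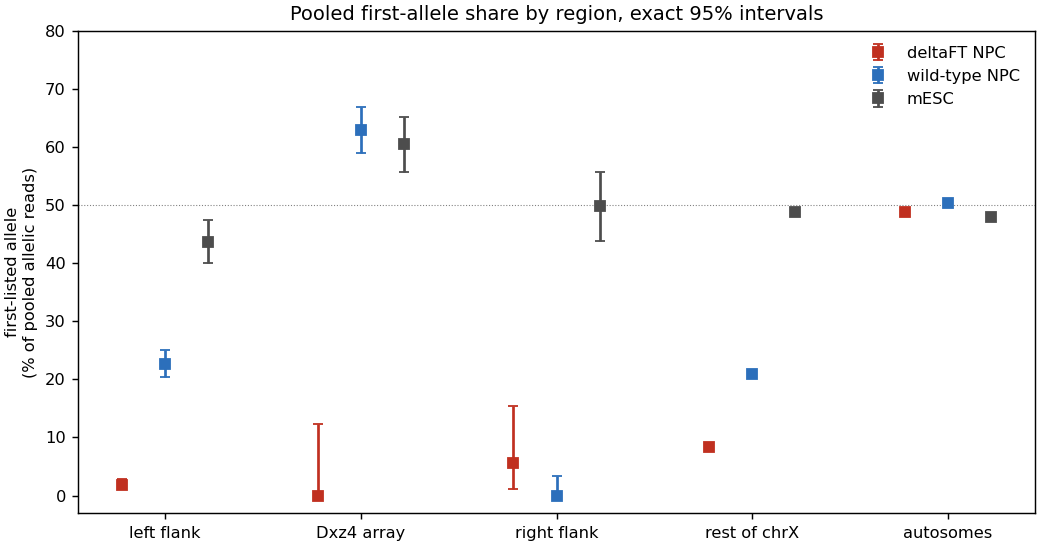
Share of the first-listed allele among pooled allelic reads of peaks with at least 10 allelic reads, by region and line, with exact 95% intervals. In the array wild-type NPC (63.1%) and mESC (60.6%) lie above 50% and deltaFT NPC at 0, whereas all lines lie between 47.9% and 50.4% on the autosomes.

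The strongest site of the window lay 46.4 kb left of the array, at chrX:72919133-72920008. It had 1444 reads in deltaFT NPC, 2431 in wild-type NPC and 1509 in mESC. The alleles gave 2 first-listed and 471 second-listed reads in deltaFT NPC, 158 and 574 in wild-type NPC, and 208 and 270 in mESC. The first-listed share was thus 0.423% (0.0512% to 1.52%), 21.6% (18.7% to 24.7%) and 43.5% (39.0% to 48.1%), and no interval met another. The first-listed reads, scaled to autosomal peak reads of the same allele, were 0.0123 (0.00148 to 0.0453) times those of wild-type NPC in deltaFT NPC. The second-listed reads were 0.752 (0.664 to 0.851) times, so this allele was also lower, by far less. In bulk samples, fewer cells with the site open and a lower opening in each cell cannot be told apart. As the deletion was not placed, a missing first-listed sequence in deltaFT NPC cannot be told apart from these either.

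The site at chrX:72759317-72760295, 206.2 kb left of the array, showed the same order between the NPC lines. It had 4 first-listed and 370 second-listed reads in deltaFT NPC, where the list splits it into 2 peaks, against 131 and 301 in wild-type NPC and 53 and 45 in mESC. First-listed reads in deltaFT NPC were 0.0297 (0.00798 to 0.0780) times those in wild-type NPC, and second-listed reads 1.13 (0.965 to 1.32) times. The first-listed allele was lower, and the interval of the second-listed ratio includes 1. The mESC IDR peak covered the left part of the site only, so its 235 reads are not a level of the same stretch.

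Other left-flank sites were read almost wholly from the second-listed allele in both NPC lines. At 72.662 Mb the alleles gave 2 and 126 reads in deltaFT NPC, 2 and 85 in wild-type NPC, and 33 and 49 in mESC. At 72.721 Mb they gave 0 and 48 in deltaFT NPC, 0 and 40 in wild-type NPC, and 9 and 16 in mESC. At 72.823 Mb they gave 0 and 14 in deltaFT NPC, 1 and 9 in wild-type NPC, and 4 and 15 in mESC, too few for the intervals to part. The site at 72.628 Mb had 193, 182 and 195 reads in the 3 lines and 2 allelic reads in each.

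A left-flank site at chrX:72854381-72854695 went against this pattern. It had 12 first-listed and 13 second-listed reads in deltaFT NPC, a share of 48.0% (27.8% to 68.7%), against 8 and 13 in wild-type NPC, a share of 38.1% (18.1% to 61.6%). The mESC lists held no peak there. In deltaFT NPC this site alone gave 52.2% of the 23 first-listed reads of the window, with 92 of the 4251 reads.

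**Figure D3:**
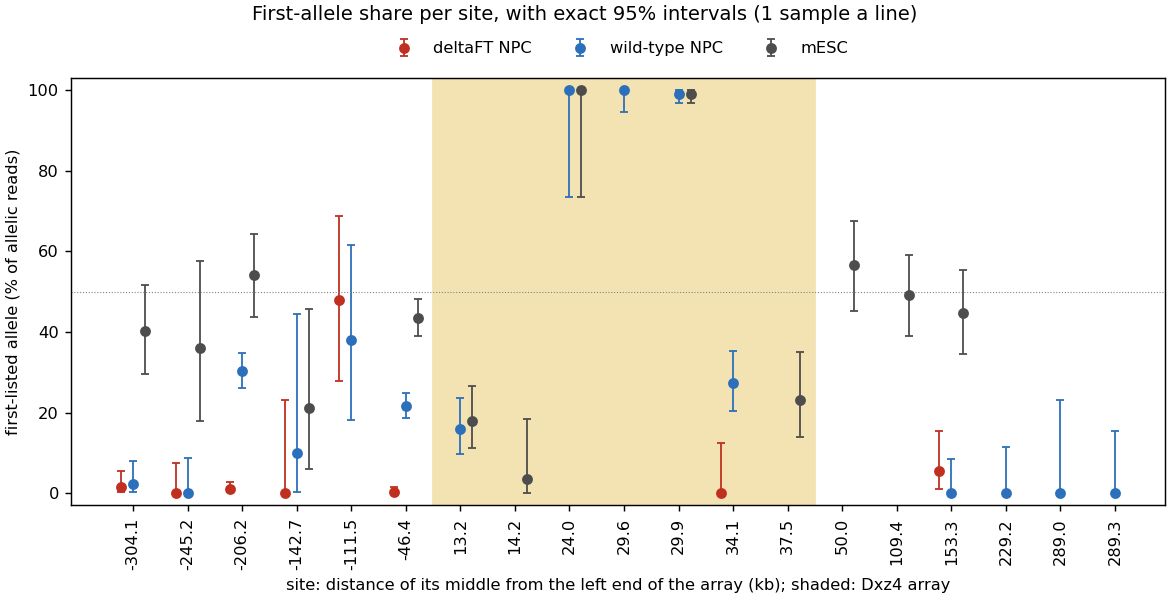
Share of the first-listed allele at each site with at least 10 allelic reads, with exact 95% intervals. In wild-type NPC and mESC the sites 24.0 to 29.9 kb into the array lie at 99.1% to 100%, while deltaFT NPC lies near 0 except at 48.0% for the site 111.5 kb left of the array.

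In the array, wild-type NPC and mESC shared peaks read from the first-listed allele nearly alone. The peak at chrX:72995729-72996020 in wild-type NPC had 337 reads, 224 first-listed and 2 second-listed (99.1%, 96.8% to 99.9%), and the mESC peak at chrX:72995717-72996042 had 292, with 212 and 2. Next to it the peak at chrX:72995529-72995657 had 66 first-listed and 0 second-listed reads in wild-type NPC. The site at chrX:72989838-72990160 had 281 reads in wild-type NPC and 186 in mESC, with 12 first-listed and 0 second-listed reads in each line, so few of its reads were assigned. No list of deltaFT NPC held a peak at any of these, and whether their sequence was deleted was not tested. Such one-sided peaks, with at least 95% first-allele reads, numbered 0 of 9 in deltaFT NPC, 3 of 15 in wild-type NPC and 2 of 13 in mESC. Over chrX they were 0.398%, 0.840% and 0.552% of peaks with at least 10 allelic reads, 3, 7 and 5 peaks in all. The 3 array peaks held 302 of the 662 first-allele reads of the wild-type NPC window (45.6%), and the 2 of mESC 31.5%. The one-sidedness was thus found in mESC as well, where the alleles of chrX were balanced.

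The other array sites with at least 10 allelic reads were read from both alleles or mostly from the second-listed one. At 72.979 Mb the alleles gave 19 and 101 reads in wild-type NPC and 19 and 87 in mESC, shares of 15.8% and 17.9%. The deltaFT IDR list held no peak there, and its library list held a weak one, with a −log10 p of 3.66. At 73.000 Mb deltaFT NPC had 31 reads, 0 first-listed and 28 second-listed, against 180 in wild-type NPC, with 41 and 109. Second-listed reads there were 0.235 (0.150 to 0.359) times those in wild-type NPC, and the first-listed ratio was at most 0.0917. Both alleles were thus lower at this site in deltaFT NPC, as they were at 72.920 Mb. Over the left-flank sites second-listed ratios ran from 0.752 to 1.43.

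Only mESC had IDR peaks at 72.974, 72.980 and 73.004 Mb, with 82, 49 and 122 reads and 1 and 1, 1 and 27, and 16 and 53 allelic reads. The wild-type NPC library lists also held a peak at each of these. The site at the right end of the array, chrX:73009458-73010196, was open in every line, with 447 reads in deltaFT NPC, 394 in wild-type NPC and 334 in mESC. It had 1, 0 and 0 allelic reads, so the data do not tell which allele it was read from. It was also the larger of the 2 array peaks left in deltaFT NPC, with 447 of 478 reads.

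In the right flank the lines differed both in which sites were listed and in allele balance. At 73.119 Mb the alleles gave 3 and 51 reads in deltaFT NPC, 0 and 41 in wild-type NPC, and 43 and 53 in mESC. Among the female lines mESC alone had a peak at 73.016 Mb, with 47 and 36 allelic reads. At 73.075 Mb mESC alone had a peak in the IDR lists, with 51 and 53. Every TXY list held a peak at both of these sites. Wild-type NPC alone had peaks in the IDR lists at 73.195 Mb (0 and 30 reads) and at the neighbouring chrX:73254937-73255100 and chrX:73255179-73255374 (0 and 14, and 0 and 22). The site at 73.120 Mb had 291, 369 and 308 reads in deltaFT NPC, wild-type NPC and mESC and at most 1 allelic read in each. The site at 73.064 Mb had 21 reads in deltaFT NPC and 111 in wild-type NPC. The site at 73.095 Mb had 32 in deltaFT NPC, the one deltaFT site with no wild-type IDR peak. The library 1 list of wild-type NPC did hold a peak there, with a −log10 p of 12.3. That of deltaFT NPC had a −log10 p of 6.24, each within its own list.

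Site by site, 8 window peaks had at least 10 allelic reads in both NPC lines. In 3 of them (72.760, 72.920 and 73.000 Mb) the interval of the first-allele share in deltaFT NPC lay wholly below that in wild-type NPC, and in 0 above it. Over chrX the same was found in 20.2% (101 of 499) below and 3.21% above, and on autosomes in 6.36% and 3.80%. The window count of 3 rests on few peaks. For wild-type NPC against mESC 5 of 9 peaks lay below (72.662, 72.721, 72.760, 72.920 and 73.119 Mb) and 0 above, beside 64.6% and 1.20% over chrX and 4.12% and 7.38% on autosomes, so the window count was near that of chrX. The 2 comparisons share the wild-type NPC sample.

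Peaks read from both alleles, each with at least 20% of the reads, numbered 1 of 9 in deltaFT NPC, 4 of 15 in wild-type NPC and 9 of 13 in mESC. Over chrX the shares were 10.1%, 26.5% and 94.7%. The mESC window was thus the one that fell short of its chrX share, and its 4 other peaks were all in the array. Peaks with at most 5% first-allele reads numbered 7 of 9, 6 of 15 and 1 of 13, against 57.2%, 55.8% and 0.221% over chrX.

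Of the 19 wild-type NPC peaks 4 overlapped no peak in any deltaFT list. They were the 3 one-sided array peaks, with 685 reads, and chrX:73255179-73255374, with 57. Over chrX 18.4% of wild-type NPC peaks were absent in this way and on autosomes 10.6%, so the number of 4 was near the background. On the IDR list alone 7 of 19 were absent, beside 46.1% over chrX. In the other direction 0 of 14 deltaFT peaks were absent from all wild-type NPC lists, beside 16.2% over chrX and 5.53% on autosomes, and 1 from the IDR list, beside 38.0%. Between wild-type NPC and mESC 4 of 19 wild-type NPC peaks were absent from all mESC lists (72.855 and 73.064 Mb and both peaks at 73.255 Mb), beside 44.7% over chrX and 52.5% on autosomes. Of the 17 mESC peaks 1 was absent from all wild-type NPC lists (73.016 Mb), beside 51.8% over chrX and 41.1% on autosomes.

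The window held 4251 reads in deltaFT NPC, 6840 in wild-type NPC and 4619 in mESC. Scaled per 1e6 reads in autosomal peaks, these were 392, 638 and 748. Its peaks covered 6628, 7821 and 7559 bp, at 0.641, 0.875 and 0.611 reads per bp. The deltaFT value was 0.615 (0.591 to 0.639) times that of wild-type NPC, below the 0.819 of chrX as a whole. The ratio was 0.707 (0.676 to 0.740) in the left flank, 0.341 (0.307 to 0.379) in the array and 0.556 (0.495 to 0.623) in the right flank, so it was lowest in the array. The value of wild-type NPC was 0.853 (0.822 to 0.886) times that of mESC in the window, 1.00 in the left flank, 0.678 in the array and 0.612 in the right flank, against 0.533 over chrX. These sums move with what was called in each list.

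The TXY lists, which have no allele counts, were used for presence. In all, the IDR and TXY lists gave 31 sites, of which 12 were in every TXY list and 7 in all 7 lists. The 8 sites with an NPC but no mESC IDR peak were in 0 of the TXY lists, while the 5 with an mESC but no NPC IDR peak were in at least 3 of the 4. Of the 7 such sites in wild-type NPC, 3 had a peak in an mESC library list. No site found in the NPC IDR lists alone was thus listed in the male stem cells. The same counts were not made on the rest of chrX or on autosomes, so whether this split is particular to the window was not tested. The array sites at 72.980, 72.990, 72.996 and 73.010 Mb were open in all 4 TXY lists. The one-sided 72.996 Mb site ranked 4 of 18 window peaks in TXY deltaRepA plus dox, 3 of 18 in TXY deltaRepA no dox, 3 of 16 in TXY wild type plus dox and 3 of 22 in TXY wild type no dox, by the authors' −log10 p. The 73.120 Mb site ranked 1 in each list. The others among the 5 strongest were 72.662 and 72.920 Mb in every list, 73.075 Mb in both deltaRepA lists, 72.990 Mb in wild type plus dox and 73.010 Mb in wild type no dox.

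**Figure D4:**
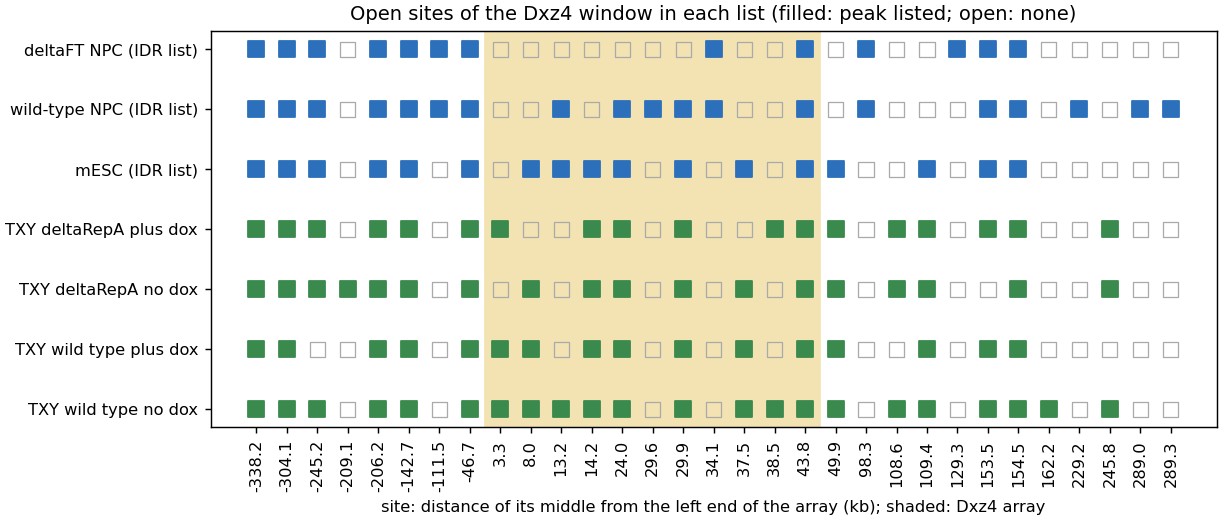
Presence of a peak at each of the 31 sites in the 3 IDR lists and the 4 TXY lists, ordered along the chromosome by distance from the left end of the array. The left flank is filled at 5 (TXY wild type plus dox) to 7 of its 8 sites. The array is open at 2 sites in deltaFT NPC and at 6 to 9 in the others. The sites at 229.2, 289.0 and 289.3 kb are filled in wild-type NPC alone.

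The dox comparison asked what Xist RNA does to open chromatin on the only X of male cells, with and without its A repeat. In TXY deltaRepA 15 of the 18 no-dox window peaks were also found with dox (83.3%, 58.6% to 96.4%), beside 74.9% on the rest of chrX and 68.7% on autosomes. In TXY wild type 16 of 22 were (72.7%, 49.8% to 89.3%), beside 55.4% and 62.1%. Both intervals hold the share of the rest of chrX, and the difference between the genotypes was not tested. In the array 4 of 6 were kept in deltaRepA and 7 of 9 in wild type. Conversely 15 of 18 plus-dox peaks were found without dox in deltaRepA, beside 77.9% on the rest of chrX and 62.8% on autosomes. In wild type 16 of 16 were, beside 92.4% and 69.4%, so dox added no window peak in wild type. The 6 peaks not found with dox in wild type lay at 72.721, 72.979, 73.128 and 73.212 Mb and at chrX:73004333-73004613 and chrX:73074464-73074770, each of these last being the neighbour of a kept peak. Their ranks ran from 12 to 19 of 22, so all were among the weaker peaks. The 5 strongest were kept in both genotypes.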

How the data were processed

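ATAC-seq peak lists of 7 mouse samples were used. The submitters' processing notes name mm9, cutadapt, Bowtie2 and MACS2; the sources used here give no versions and do not say how duplicates, the Tn5 offset or the assignment to alleles were handled. Each IDR list deposited by the authors holds raw read counts per peak, the count of each allele, the peak width, an IDR under 0.05 and joined values per library; it is not stated whether these counts come from 1 library or both. The library and merged TXY lists hold the authors' fold enrichment (a ratio over background) and −log10 p and q values, used only to rank or filter within a list.

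Starts are printed 1-based. Peaks overlapping by at least 1 bp formed sites, and peaks of 2 lines were matched as mutual best overlaps. A peak entered the allelic shares from 10 allelic reads on. Read sums were scaled to reads in autosomal peaks. Software was scipy 1.17.1, pandas 2.3.3 and numpy 2.4.6 under python 3.11.15, with matplotlib 3.10.9 for plots; the steps were tested on simulated data. Named peaks were all IDR peaks of the window with at least 10 reads, those in the array included, and the 5 strongest of each TXY list. Others were named after their values were seen. Array peaks listed outside the IDR lists were not all named. In library 1 of deltaFT NPC these include chrX:72972463-72972562, chrX:72984521-72984620 and chrX:72985476-72985590, with a −log10 p of 3.48, 3.11 and 4.98. The members, lists and comparisons were chosen with earlier results of these data known. The alternatives were other minima, windows, overlaps, limits and scalings, each library left out and, added after seeing the data, the window without the array. Genes near peaks, motifs in peaks and cell type markers were planned and not analysed here, as no mm9 annotation or genome was used.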

Additional observations from a re-analysis of the deposited data

How the results depend on the processing

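For 11 results 61 alternative values were computed; 51 stayed within the counting interval of the reported value or within 1.5 times the reported count, 10 moved and 0 reversed. In a wider window (72 to 73.8 Mb) the first-allele share of wild-type NPC was 30.3%, the difference of deltaFT NPC from it -28.3 points and the read ratio 0.659. Without the peaks of the array these were 21.0%, -18.9 points and 0.684, and the mESC share was 45.5%. In a narrower window (72.7 to 73.2 Mb) the read ratio was 0.570, and scaled by the median ratio of matched autosomal peaks 0.585. With 30% asked of each allele 2 wild-type NPC peaks were read from both, against 4. The cause of these moves was not tested. The number of wild-type NPC peaks absent from deltaFT was 4 to 4 without either library, which on chrX leaves the same rows. With a −log10 q of at least 5 asked in both merged TXY lists, 84.6% (54.6% to 98.1%) of 13 no-dox peaks were kept in deltaRepA. In wild type 56.3% (29.9% to 80.2%) of 16 were kept. These intervals overlap, but they too count the peaks of 1 list per condition as independent, so no conclusion is drawn from them. The difference between the genotypes was not tested, and the chrX and autosomal shares at this cutoff were not computed. No paired analysis was possible because each group is 1 sample. Depth limits the sites with under 10 allelic reads, whose allele balance could not be read.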

Other observations

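Single peaks outside the IDR lists were chosen here after their values were seen. The strongest peak that the wild-type NPC library 1 list holds in the window without an overlapping IDR peak in any line lay in the left flank at chrX:72735307-72735569, with an authors' −log10 p of 17.5 and fold enrichment of 10.4, and no TXY list held it. The deltaFT NPC library 1 list held an overlapping peak at chrX:72735147-72735596, with a −log10 p of 6.64 in its own list. At the right end of the window, library 1 of deltaFT NPC listed chrX:73219990-73220119 (−log10 p 8.69) and library 1 of wild-type NPC chrX:73220113-73220274 (−log10 p 8.54), neighbouring stretches that overlap by a few bases and are in no IDR list. The site at 73.195 Mb, in the IDR list of wild-type NPC alone, was in the deltaFT library 1 list with a −log10 p of 10.1.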
